A study of Mus musculus with 22 samples.

Results

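Enteric glia genes were described in RNA sequencing of the distal colon, as the 6 genes Sox10, Foxd3, S100b, Gfap, Erbb3 and Entpd2 out of 46078 genes in the count table. The members were taken by gene name, each name matched 1 row, and all 6 had counts in every library. The study compared 8 C57BL/6 mice of 14 weeks (4 males, 4 females), 7 Winnie mice of 14 weeks (3 males, 4 females) and 7 Winnie-Prolapse mice of 18 weeks (4 males, 3 females). Winnie mice have a missense mutation of Muc2, the gene of the main mucin of the colon, and their colitis arises without treatment; Winnie-Prolapse mice are Winnie mice whose colitis has advanced to rectal prolapse, and no agent was given to any group. Age and prolapse cannot be told apart in the Winnie-Prolapse group. The samples were pieces of distal colon with no cell type separated. Fewer glial cells, less RNA per glial cell, a changed mix of tissues and RNA from other cell types therefore cannot be told apart here.

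Enteric glia are the supporting cells of the gut's own nervous system. They arise from the neural crest, lie around the neurons of the ganglia between the muscle layers and under the mucosa, and extend into the muscle and the mucosa, where they respond to injury and inflammation. Sox10 and Foxd3 encode transcription factors that keep neural crest cells and glia in their state. S100b encodes a calcium-binding protein and Gfap the intermediate filament protein of glia, which are the usual stains for these cells. Erbb3 encodes the receptor through which neuregulin acts on glia and Schwann cells, and it is also used by gut epithelium. Entpd2 encodes an ectonucleotidase, an enzyme at the cell surface that removes phosphate from extracellular ATP.

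Libraries held 24.8 to 36.3 M counts, and 3 counts came to 0.0825 to 0.121 CPM, the count scaled to the library total. Winnie-Prolapse replicate 6, a female, stood apart. In this library 18.0% of all counts came from 6 milk protein genes, against 0.000185% to 0.00542% in the other 21 libraries, and the CPM of its other genes are scaled on a total that includes these counts. Fold changes, calls, correlations and sex differences that include this library are therefore mostly given with and without it. Calls of DESeq2 are given with all libraries only, and ranges of levels include this library unless stated. Fold changes were fitted after TMM normalization, which gave this library a factor of 0.839 in the comparison with C57BL/6.

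In Winnie mice, Sox10, Foxd3, S100b and Gfap were lower than in C57BL/6 mice at an adjusted p under 0.05 with all libraries and at least 1.5-fold (edgeR's quasi-likelihood test; 8.53% of all genes tested were lower by this rule). Leaving out 1 library ended this call in 10 of 15 fits for Sox10 and 11 of 15 for Foxd3, and in 0 of 15 for S100b and Gfap. Entpd2 was lower by a smaller margin, and Erbb3 was at the same level within its error. In Winnie-Prolapse mice, Foxd3 and S100b were lower than in C57BL/6 mice at the study's limits of an adjusted p under 0.001 and at least 1.5-fold (8.47% of all genes tested were lower by this rule), and Sox10 joined them without replicate 6. Gfap was lower at the 0.05 limit, as was Erbb3 with all libraries; without replicate 6 the adjusted p of Erbb3 was still under 0.05 but its change was 1.47-fold. Between Winnie-Prolapse and Winnie mice no member and 0% of all genes passed the 0.001 limit. Erbb3 was lower there at the 0.05 limit with all libraries, as were 2.72% of genes, a call lost in 9 of 14 fits that left out 1 library.

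**Figure D1:**
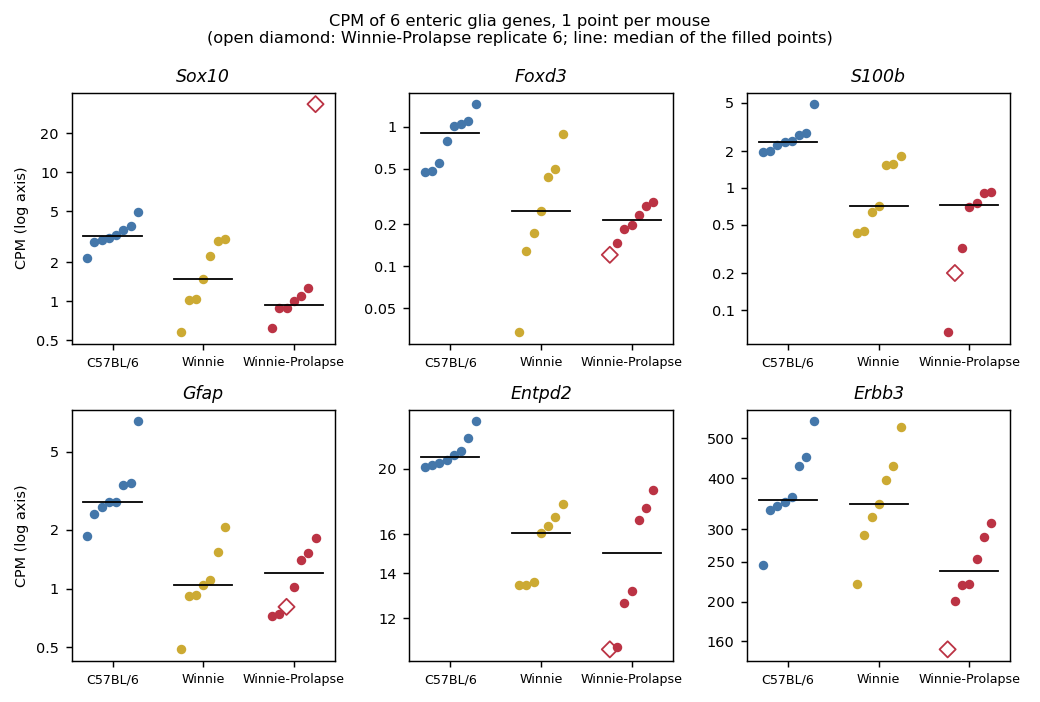
Level of each enteric glia gene in every library, in CPM on a log axis, by group; each point is 1 mouse, the open diamond is Winnie-Prolapse replicate 6 and the line is the median of the filled points. Sox10 in the diamond stands at 33.7 CPM, above every other library, while the other 6 Winnie-Prolapse libraries lie below all C57BL/6 libraries for Sox10, Foxd3, S100b, Gfap and Entpd2. With all 7 libraries this holds for Foxd3, S100b, Gfap and Entpd2, and for 9.45% of all genes tested. The share of all genes for the 6 libraries was not computed.

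The members differed widely in level. Per kilobase of exon, the mean level in C57BL/6 mice was 63.6 ± 15.3 CPM per kb for Erbb3 and 9.94 ± 0.549 CPM per kb for Entpd2 (SD, n = 8). It was 1.80 ± 0.628 for S100b, 1.09 ± 0.263 for Sox10, 0.781 ± 0.388 for Gfap and 0.371 ± 0.150 CPM per kb for Foxd3 (SD, n = 8). The lowest C57BL/6 library for Erbb3, at 40.9 CPM per kb, lay above the highest for Entpd2, at 11.0, and the lowest for Entpd2, at 9.43, lay above the highest of the other 4 genes, at 3.27 CPM per kb for S100b. The neighbours S100b, Sox10, Gfap and Foxd3 overlapped in their ranges. Erbb3 and Entpd2 were thus not at the level of the other members, and Erbb3 was measured with 3795 to 16259 counts in a library whereas Foxd3 was measured with 1 to 40.

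Sox10 (ENSMUSG00000033006; GRCm38, chromosome 15, 79154908 to 79165240, minus strand) ranged from 2.15 to 4.89 CPM in C57BL/6 mice with a median of 3.18, from 0.575 to 3.05 CPM in Winnie mice with a median of 1.47, and from 0.621 to 33.7 CPM in Winnie-Prolapse mice with a median of 31 counts. The Winnie range ran into the C57BL/6 range, and its upper end came from replicates 3 and 5. In Winnie-Prolapse mice, 6 of 7 libraries held 21 to 42 Sox10 counts and replicate 6 held 837. Sox10 was lower in Winnie mice by 0.86 ± 0.30 on the log2 scale (SE, log2 fold change -0.86; edgeR adjusted p = 0.0424). In Winnie-Prolapse against C57BL/6 mice its log2 fold change was 1.04 ± 0.85 (edgeR adjusted p = 0.315) with all libraries and -1.73 ± 0.22 (edgeR adjusted p = 2.37e-05) without replicate 6. All 6 of the other Winnie-Prolapse libraries, at most 1.27 CPM, lay below the lowest C57BL/6 library. The share of all genes that were apart in this way without replicate 6 was not computed. In replicate 6, the other members were not raised with Sox10: it held 3 counts of Foxd3, 5 of S100b and 20 of Gfap, each among the 3 lowest Winnie-Prolapse counts of its gene. Of the 18 other glial and Schwann cell genes of a list, 2 had their highest Winnie-Prolapse level in this library, Cnp and Cdh19, an adhesion gene of Schwann cells, both named for this after their values were seen. Cdh19 stood at 3.38 CPM (84 counts) there, against 0.556 to 1.27 CPM in the other 6 and 2.02 to 8.30 CPM in C57BL/6 mice, and its log2 fold change against C57BL/6 was -1.59 ± 0.44 (edgeR adjusted p = 0.00627) with all libraries and -2.18 ± 0.32 (edgeR adjusted p = 8.97e-05) without replicate 6. The library was also the highest of its group for 3 of 4 fat cell markers and 6 of 6 milk protein genes. The part of these in its Sox10 value was not tested.

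Foxd3 (ENSMUSG00000067261; chromosome 4, 99656299 to 99658622, plus strand, a single exon that also holds the microRNA gene Gm23366) ranged from 0.476 to 1.45 CPM in C57BL/6 mice, from 0.0338 to 0.886 CPM in Winnie mice and from 0.121 to 0.291 CPM in Winnie-Prolapse mice. The medians were 0.904, 0.248 and 0.196 CPM. All Winnie-Prolapse libraries lay below all C57BL/6 libraries, as they did for 9.45% of all genes tested, and the Winnie libraries spread over both, from 1 count in replicate 4 to 27 counts in replicate 5. The log2 fold change was -1.26 ± 0.44 in Winnie mice (edgeR adjusted p = 0.0473) and -1.96 ± 0.29 in Winnie-Prolapse mice (edgeR adjusted p = 5.58e-05), or -1.89 ± 0.30 (edgeR adjusted p = 0.000167) without replicate 6. Foxd3 did not pass the low-count filter between Winnie-Prolapse and Winnie mice and was not tested there.

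S100b (ENSMUSG00000033208; chromosome 10, 76253853 to 76261159, plus strand, overlapped on the other strand by Dip2a) ranged from 1.97 to 4.85 CPM in C57BL/6 mice with a median of 2.39. It ranged from 0.431 to 1.81 CPM in Winnie mice with a median of 0.715, and from 0.0661 to 0.920 CPM in Winnie-Prolapse mice with a median of 0.696. Neither affected group overlapped the C57BL/6 group (1.17% of all genes were apart and lower in Winnie and 9.45% in Winnie-Prolapse mice), and the lowest value was 2 counts in Winnie-Prolapse replicate 4. The log2 fold change was -1.32 ± 0.32 in Winnie mice (edgeR adjusted p = 0.0106) and -2.19 ± 0.40 in Winnie-Prolapse mice (edgeR adjusted p = 0.000316), or -2.06 ± 0.40 (edgeR adjusted p = 0.000821) without replicate 6.

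Gfap (ENSMUSG00000020932; chromosome 11, 102887336 to 102900912, minus strand, with the lincRNA gene Gm26668 on the other strand) ranged from 1.85 to 7.14 CPM in C57BL/6 mice, from 0.489 to 2.07 CPM in Winnie mice and from 0.727 to 1.80 CPM in Winnie-Prolapse mice. The medians were 2.76, 1.04 and 1.01 CPM. Winnie replicate 5, at 2.07 CPM, was the 1 Winnie library inside the C57BL/6 range. All Winnie-Prolapse libraries lay below that range, as they did for 9.45% of all genes tested. The log2 fold change was -1.45 ± 0.30 in Winnie mice (edgeR adjusted p = 0.00553) and -1.43 ± 0.31 in Winnie-Prolapse mice (edgeR adjusted p = 0.00139), which missed the 0.001 limit, or -1.37 ± 0.33 (edgeR adjusted p = 0.00376) without replicate 6. Both S100b and Gfap were highest in C57BL/6 replicate 7, with 134 and 197 counts. Within its group this library also had the highest summed smooth muscle, enteric neuron, fat cell, colon epithelium and squamous epithelium marker levels. Its sums of the other glial, neural crest, ectonucleotidase and reactive glia lists given below were also the highest. Its leukocyte, melanocyte and milk protein sums were not. The part of these tissues in its S100b and Gfap values was not tested.

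S100b and Gfap, the pair of glial stains, were lower in both affected groups and were correlated within groups, so that the 250 bases before their start sites are shown (RefSeq, GRCm38.p6; S100b at chr10:76253586-76253835 on the plus strand, Gfap at chr11:102897201-102897450 on the minus strand). The letters ACAAAG and ACAATG, forms of the core bound by SOX factors, were searched on both strands from 250 bases before to 50 bases after each start. Capitals would mark a match, and there was none in the windows of S100b, Gfap, Foxd3 and Entpd2, the 4 of 6 members with a RefSeq window in the table used. Either motif was present in 28.6% of 32851 windows of the same length (ACAAAG in 18.7%, ACAATG in 12.6%).
S100b: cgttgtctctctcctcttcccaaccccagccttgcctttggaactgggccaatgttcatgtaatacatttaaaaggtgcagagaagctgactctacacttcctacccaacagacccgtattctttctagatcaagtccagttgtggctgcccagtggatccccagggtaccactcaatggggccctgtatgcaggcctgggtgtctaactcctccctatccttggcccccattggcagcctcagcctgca
Gfap: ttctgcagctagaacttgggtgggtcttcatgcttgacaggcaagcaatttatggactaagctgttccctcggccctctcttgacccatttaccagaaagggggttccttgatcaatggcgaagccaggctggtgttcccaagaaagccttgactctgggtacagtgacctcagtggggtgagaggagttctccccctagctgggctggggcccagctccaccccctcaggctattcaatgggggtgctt
A window without these letters says nothing of other forms of the core within it, which were not searched, or of binding elsewhere in the gene.

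Entpd2 (ENSMUSG00000015085; chromosome 2, 25395874 to 25401321, plus strand, overlapped on the same strand by Npdc1) varied least among C57BL/6 mice relative to its mean, at 20.1 to 23.5 CPM with a median of 20.8. It ranged from 13.4 to 17.7 CPM in Winnie mice with a median of 16.1, and from 10.8 to 18.6 CPM in Winnie-Prolapse mice with a median of 13.2. Neither affected group overlapped the C57BL/6 group, as for 1.17% of all genes in Winnie and 9.45% in Winnie-Prolapse mice (lower). The decrease was small against its low error, with a log2 fold change of -0.38 ± 0.08 in Winnie mice (1.30-fold; edgeR adjusted p = 0.00521) and -0.47 ± 0.14 in Winnie-Prolapse mice (1.38-fold; edgeR adjusted p = 0.00969), or -0.42 ± 0.15 (edgeR adjusted p = 0.0282) without replicate 6. The change stayed under 1.5-fold in both, and how reads shared with Npdc1 were counted is not given in the sources used here.

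Erbb3 (ENSMUSG00000018166; chromosome 10, 128567523 to 128589652, minus strand, 28 exon blocks, with the microRNA gene Mir6917 inside it) ranged from 246 to 551 CPM in C57BL/6 mice with a median of 355. It ranged from 221 to 533 CPM in Winnie mice with a median of 346, and from 153 to 311 CPM in Winnie-Prolapse mice with a median of 221. The C57BL/6 and Winnie ranges nearly coincided, whereas 4 of 7 Winnie-Prolapse libraries lay below every library of both groups and the other 3 lay in their lower parts. The log2 fold change was 0.00 ± 0.17 in Winnie mice (edgeR adjusted p = 0.988). It was -0.62 ± 0.15 in Winnie-Prolapse against C57BL/6 mice (edgeR adjusted p = 0.0033) and -0.63 ± 0.18 against Winnie mice (edgeR adjusted p = 0.0432). Without replicate 6 these were -0.56 ± 0.16 (edgeR adjusted p = 0.0108) and -0.58 ± 0.19 (edgeR adjusted p = 0.0879).

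**Figure D2:**
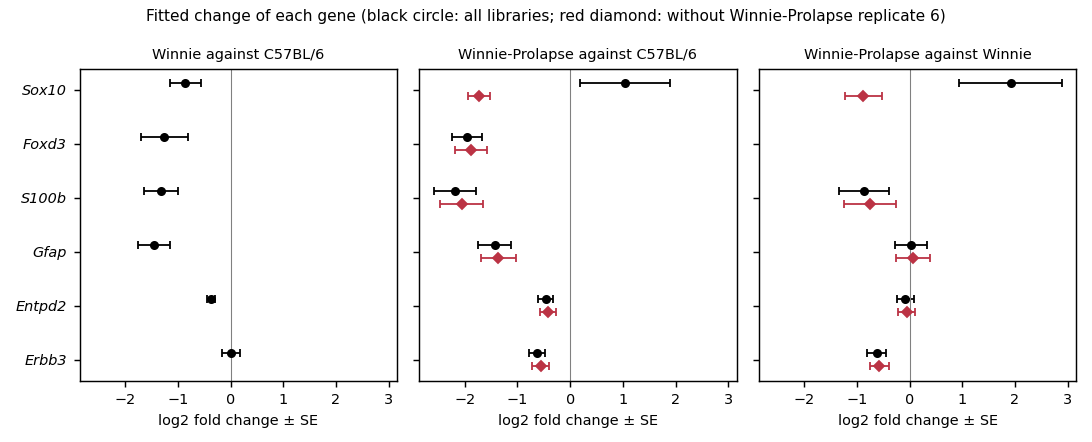
Fitted log2 fold change of each enteric glia gene with its SE in the 3 comparisons; black circles are fits on all libraries and red diamonds are fits without Winnie-Prolapse replicate 6, which applies to both panels of Winnie-Prolapse mice. Sox10 moves from 1.04 to -1.73 against C57BL/6 when that library is left out, the other genes move by less than their SE, and Foxd3 has no value against Winnie mice because it was not tested there.

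Between Winnie and C57BL/6 mice, 0 of 6 members were called at an adjusted p under 0.001 and 1.5-fold, a limit passed by 0.0925% of the 17289 genes tested (either direction). At an adjusted p under 0.05, 4 of 6 were called lower (Sox10, Foxd3, S100b, Gfap), against 8.53% of all genes called lower. Among the fits without 1 library, the highest adjusted p was 0.0914 for Sox10 and 0.0944 for Foxd3 in edgeR, both without Winnie replicate 1. The groups did not overlap, with Winnie lower, for S100b and Entpd2, and for 1.17% of all genes. The median log2 fold change was -1.06 over the 6 members and -0.01 over all genes tested. At an unadjusted p under 0.05, 5 of the 6 members differed in edgeR, as did 39.9% of all genes, and DESeq2 called 2 of them, S100b and Gfap, at the 0.001 limit, as it did 6.43% of genes.

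Between Winnie-Prolapse and C57BL/6 mice, 2 of 6 members (Foxd3, S100b) were called lower at the 0.001 limit, against 8.47% of 17397 genes called lower and 18.3% called in either direction. Without replicate 6, 3 were called lower (Sox10 added), against 6.57% of 17542 genes. Without Winnie-Prolapse replicate 7, 4 were called lower, against 7.69% of genes, Gfap (edgeR adjusted p = 0.000928) and Erbb3 (edgeR adjusted p = 0.000995) having passed the limit. With all libraries DESeq2 called 5 members at the 0.001 limit, as it did 23.2% of genes. Sox10 was among these 5, with its replicate 6 count replaced by DESeq2 as an outlier. In males alone and in females alone edgeR called 0 members at that limit, and 0.339% and 0.177% of genes lower, whereas the log2 fold changes were -1.36 and -2.53 for Foxd3 (edgeR adjusted p = 0.0221 and 0.00269) and -2.25 and -2.07 for S100b (edgeR adjusted p = 0.0165 and 0.021). At an adjusted p under 0.05, 4 were called lower with all libraries (Foxd3, S100b, Gfap, Erbb3), against 17.7% of genes, and 4 without replicate 6 (Sox10 in place of Erbb3), against 16.4%. The Erbb3 call at this limit ended in 4 of 15 fits that left out 1 library, which were C57BL/6 replicates 3 and 5 and Winnie-Prolapse replicates 4 and 6, with log2 fold changes of -0.58, -0.52, -0.57 and -0.56 and an adjusted p under 0.05 in edgeR. Both groups were apart, with Winnie-Prolapse lower, for Foxd3, S100b, Gfap and Entpd2, and for 9.45% of all genes. The members' median log2 fold change was -1.03 with all libraries and -1.55 without replicate 6, against -0.01 and 0.00 over all genes tested.

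Between Winnie-Prolapse and Winnie mice, 0 of the 5 members tested were called at the 0.001 limit, as were 0% of 17041 genes in edgeR, and DESeq2 called 0 members and 3.55% of genes. At an adjusted p under 0.05 only Erbb3 was called, against 2.72% of genes called lower, and leaving out 1 library ended its call in 9 of 14 fits, replicate 6 among them (1.23% of genes were called lower without it). Gfap had a log2 fold change of 0.03 ± 0.30 (edgeR adjusted p = 0.962) and Entpd2 of -0.08 ± 0.16 (edgeR adjusted p = 0.765), or 0.06 ± 0.33 and -0.06 ± 0.17 without replicate 6 (edgeR adjusted p = 0.931 and 0.864). The value of S100b was -0.86 ± 0.48 (edgeR adjusted p = 0.255), or -0.75 ± 0.50 (edgeR adjusted p = 0.38) without replicate 6. That of Sox10 was 1.91 ± 0.97 (edgeR adjusted p = 0.216) with all libraries and -0.88 ± 0.35 (edgeR adjusted p = 0.146) without replicate 6. Erbb3 alone among these genes had an unadjusted p under 0.05 (0.00321) with all libraries, as did 27.8% of all genes. Without replicate 6, Erbb3 and Sox10 did (0.00784 and 0.0247), as did 23.8% of all genes. The comparisons of Winnie and of Winnie-Prolapse with C57BL/6 mice share their 8 control mice, and their values stand side by side without a test of likeness.

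The members were next set against Sox10 within each library, as the difference of log2 CPM values (TMM, prior count 2), to ask whether they fell in proportion. With all libraries, none of 15 comparisons passed a two-sided exact permutation test after adjustment over the 15. Between Winnie and C57BL/6 mice the largest difference was that of Erbb3. Its log2 ratio was 7.79 ± 0.779 in the 7 Winnie mice and 6.81 ± 0.497 in the 8 C57BL/6 mice (mean ± SD). This was higher in Winnie mice by 0.97 (exact permutation p = 0.0103, adjusted p = 0.154), with 3 of 7 Winnie mice above all C57BL/6 mice. Without replicate 6, Entpd2 relative to Sox10 was higher in Winnie-Prolapse than in C57BL/6 mice by 1.20 (exact permutation p = 0.000333, adjusted p = 0.00500), with 6 of 6 mice above all C57BL/6 mice. Erbb3 relative to Sox10 was higher by 1.12 (exact permutation p = 0.00233, adjusted p = 0.0175), with 5 of 6 above. The ratio of Foxd3 to Sox10 differed by 0.10 in the same mice (exact permutation p = 0.596), that of Gfap by 0.35 (exact permutation p = 0.235) and that of S100b by -0.50 (exact permutation p = 0.289). With all libraries, the Entpd2 and Erbb3 differences were 0.41 and 0.30 (exact permutation p = 0.734 and 0.840, adjusted p = 0.987 for both).

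**Figure D3:**
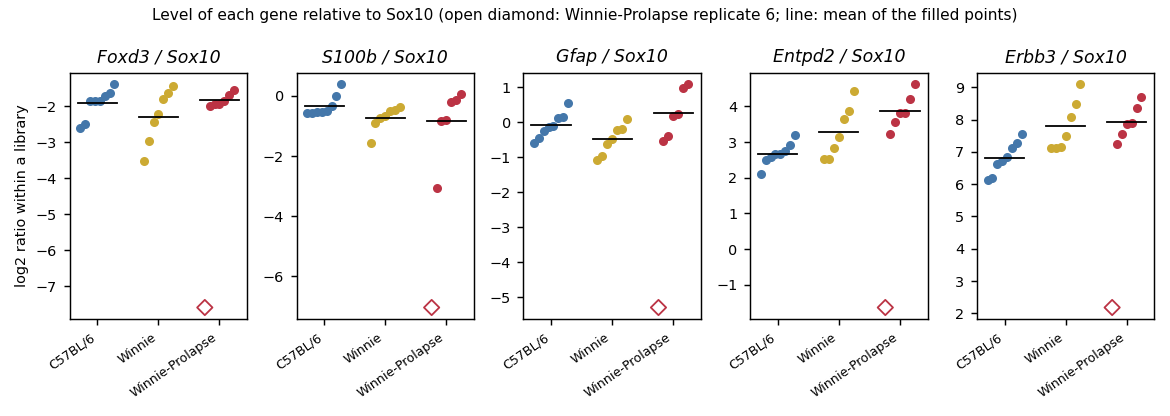
Log2 ratio of each gene to Sox10 within a library, by group; each point is 1 mouse, the open diamond is Winnie-Prolapse replicate 6 and the line is the mean of the filled points. For Entpd2 the 6 filled Winnie-Prolapse points lie above all 8 C57BL/6 points, and the diamond lies below every other point in each panel.

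Within groups, members were compared across mice by Pearson's r of log2 CPM after subtracting each group's mean, with permutation of the mice within groups and adjustment over 15 pairs. With all 22 libraries, 4 pairs passed an adjusted p under 0.05: S100b with Gfap (r = 0.62, permutation p = 0.00257, adjusted p = 0.0234, Spearman's rho = 0.62, permutation p = 0.00506), Gfap with Entpd2 (r = 0.59, permutation p = 0.00312, adjusted p = 0.0234, rho = 0.61, permutation p = 0.00573), Foxd3 with S100b (r = 0.51, permutation p = 0.0074, adjusted p = 0.037, rho = 0.59, permutation p = 0.00519) and Erbb3 with Entpd2 (r = 0.49, permutation p = 0.0107, adjusted p = 0.0401, rho = 0.63, permutation p = 0.00351). Leaving out the 2 libraries farthest from the median of the first gene gave r = 0.55, 0.72, 0.54 and 0.44. Without replicate 6 the 4 values of r were 0.62, 0.59, 0.50 and 0.47 (permutation, adjusted p = 0.0207, 0.0301, 0.0309 and 0.0309). The relation of Gfap with Entpd2 was uneven between groups, at 0.96 in Winnie-Prolapse, 0.35 in Winnie and 0.21 in C57BL/6 mice.

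Sox10 correlated with no member across all libraries, with r between -0.18 and 0.20 (permutation, adjusted p of 0.405 to 0.996). Without replicate 6 its r was 0.70 with Foxd3 (permutation p = 0.00692, adjusted p = 0.0301, rho = 0.76, permutation p = 0.00136), 0.62 with Gfap (permutation p = 0.00211, adjusted p = 0.0207, rho = 0.58, permutation p = 0.00863) and 0.53 with S100b (permutation p = 0.0173, adjusted p = 0.037, rho = 0.66, permutation p = 0.0046). Leaving out a further 2 libraries gave 0.76, 0.52 and 0.44. These relations were uneven between groups. Inside C57BL/6, Winnie and Winnie-Prolapse mice, the r of Sox10 without replicate 6 was 0.80, 0.86 and 0.14 with Gfap. It was 0.60, 0.87 and 0.14 with S100b, and 0.66, 0.71 and 0.88 with Foxd3. Over all 21 libraries, the r of Sox10 with Entpd2 and Erbb3 was 0.27 (permutation p = 0.173) and 0.09 (permutation p = 0.754).

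**Figure D4:**
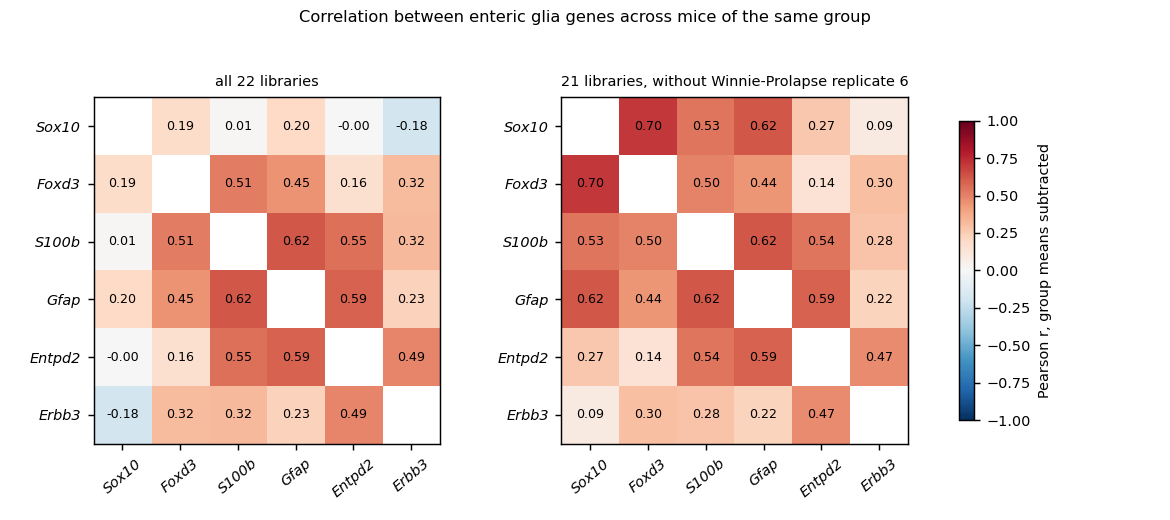
Pearson's r between enteric glia genes across mice after subtracting group means, with all 22 libraries on the left and the 21 libraries without Winnie-Prolapse replicate 6 on the right; the color scale runs from -1 to 1. The row of Sox10 is near 0 on the left and reaches 0.70 with Foxd3 on the right, while pairs without Sox10 differ little between the panels.

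The genes most like each member were ranked by the same measure over 17768 genes, as a description with no test. For Erbb3 they were Erbb2, the partner receptor kinase (r = 0.95), Grb7, an adaptor of ErbB receptors (r = 0.94), and Zfyve1 (r = 0.93). For S100b they were Pnck (r = 0.94), Tagln, a smooth muscle actin-binding protein (r = 0.91), and Myl9, a smooth muscle myosin light chain (r = 0.88). For Gfap they were Syt4, a synaptotagmin of neurons (r = 0.86), Ndst4 (r = 0.86) and the noncoding RNA Rian (r = 0.85). For Foxd3 they were the potassium channel gene Kcna6 (r = 0.89), Rnf112 (r = 0.84) and Gm37711 (r = 0.84). For Entpd2 they were the sulfotransferase gene Sult1b1 (r = 0.91), Glod5 (r = 0.88) and Cdhr5, a brush border protocadherin (r = 0.87). For Sox10 they were Atp2b2, Doc2b and Fabp3-ps1 (r = 0.94, 0.92 and 0.91) with all libraries, and Trpc4, Ntng1 and Mpdz (r = 0.93, 0.92 and 0.92) without replicate 6, with no gene shared. Without that library the 3 genes of Erbb3 stayed, the third became Cdh19 for Foxd3 (r = 0.85), Gm13446 for S100b (r = 0.91) and Brsk2 for Gfap (r = 0.85), and the second and the third became Cryl1 and Slc39a5 for Entpd2 (r = 0.88 for both).

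Other genes of glia and Schwann cells were then examined as a list of 18, of which 16 were tested. In Winnie mice 0 were called at the 0.001 limit (0.0925% of all genes, either direction). At the 0.05 limit 8 were lower (8.53% of all genes), and the median log2 fold change was -0.82. In Winnie-Prolapse against C57BL/6 mice, 9 were called lower and 1 higher, with a median of -1.25, against 8.47% of all genes called lower and 9.84% higher. Without replicate 6, 10 were called lower and the same 1 higher of 17 tested (6.57% and 8.78% of all genes), with a median of -1.14. The gene called higher was Cnp, of the myelin enzyme CNPase (0.88 ± 0.11, edgeR adjusted p = 1.28e-05; 0.80 ± 0.09 without replicate 6). Mbp, a myelin protein gene, was at -0.31 ± 0.08 in Winnie-Prolapse mice (edgeR adjusted p = 0.00483) and L1cam, an adhesion molecule gene, at 0.03 ± 0.09 (edgeR adjusted p = 0.802), or -0.32 and 0.09 without replicate 6. Ncam1, a neural adhesion molecule gene, was lower by a log2 fold change of -1.10 ± 0.20 (edgeR adjusted p = 0.000314), or -1.003 ± 0.20 (edgeR adjusted p = 0.000793) without replicate 6. Sox2, a transcription factor gene of glial progenitors, passed the filter only without replicate 6, where its log2 fold change was 2.09 ± 0.84 (edgeR adjusted p = 0.0511). Its counts were 2 to 18 in C57BL/6, 2 to 8 in Winnie and 1 to 158 in Winnie-Prolapse mice, with medians of 10, 4 and 6, so that the Winnie-Prolapse libraries spread to both sides of the C57BL/6 range.

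Of 12 regulators of the enteric neural crest, 3 were called lower and 1 higher in Winnie-Prolapse against C57BL/6 mice, with a median of -0.68, where 8.47% of all genes were called lower and 9.84% higher. Without replicate 6 the counts were again 3 and 1 (6.57% and 8.78% of all genes), with a median of -0.61. Hand2, a transcription factor gene, had a log2 fold change of -1.80 ± 0.29 (edgeR adjusted p = 0.000135; -1.67 ± 0.29 without replicate 6), and the genes called also included Gfra1, lower, and Tfap2a, higher, which are named here after their values were seen. Tfap2a did not pass the low-count filter in Winnie against C57BL/6 mice. Squamous epithelium markers, given below, were also called higher in Winnie-Prolapse mice, and their part in the Tfap2a value was not tested. Sox9 was at -0.32 ± 0.13 (edgeR adjusted p = 0.0532) and Sox8 at -0.94 ± 0.31 (edgeR adjusted p = 0.0175), or -0.32 and -0.89 without replicate 6 (edgeR adjusted p = 0.0789 and 0.0364). Ret, the receptor of glial cell line-derived neurotrophic factor, was at -1.04 ± 0.26 in Winnie (edgeR adjusted p = 0.011) and -0.12 ± 0.23 in Winnie-Prolapse mice (edgeR adjusted p = 0.691), or -0.18 ± 0.24 without replicate 6.

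Among the other neuregulin and ErbB genes (8 listed, 6 tested in Winnie-Prolapse mice with all libraries), 2 were called higher against C57BL/6 and 0 lower. Without replicate 6, where Nrg3 was tested as well, these counts were the same (9.84% and 8.78% of all genes were called higher). At the 0.05 limit without replicate 6, Nrg3 was lower and Nrg2 was also higher (16.4% and 16.2% of all genes). Egfr, the epidermal growth factor receptor gene, had a log2 fold change of 1.19 ± 0.17 (edgeR adjusted p = 3.91e-05), or 1.18 ± 0.18 without replicate 6. Nrg1, a ligand of Erbb3, ranged from 0.786 to 2.28 CPM in C57BL/6, 1.35 to 19.6 in Winnie and 6.64 to 26.3 CPM in Winnie-Prolapse mice, a log2 fold change of 2.53 ± 0.43 (edgeR adjusted p = 0.00213) in Winnie and 3.42 ± 0.34 (edgeR adjusted p = 1.58e-06) in Winnie-Prolapse mice, or 3.41 ± 0.35 without replicate 6. Erbb2 was at -0.07 ± 0.14 in Winnie (edgeR adjusted p = 0.735) and -0.61 ± 0.14 in Winnie-Prolapse mice (1.53-fold; edgeR adjusted p = 0.00171), close to the values of Erbb3. Without replicate 6 it was at -0.53 ± 0.14 (edgeR adjusted p = 0.00525), which at 1.44-fold no longer passed the 0.05 limit, as for Erbb3. The ligand gene was therefore higher in the group in which both receptor genes were lower at an adjusted p under 0.05.

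Among 13 other ectonucleotidase and purine receptor genes, 12 were tested, and 3 were called higher and 2 lower in Winnie-Prolapse against C57BL/6 mice, with a median of 0.11 (9.84% and 8.47% of all genes). Without replicate 6, 2 were called higher and 2 lower (8.78% and 6.57% of all genes), with a median of 0.08. Within the family of Entpd2, Entpd1, the ectonucleotidase CD39 of immune and vascular cells, was higher (1.29 ± 0.23, edgeR adjusted p = 0.00028) and Entpd5 was lower (-1.30 ± 0.13, edgeR adjusted p = 1.85e-06), both called also without replicate 6 (1.25 and -1.25). Entpd7 was called higher with all libraries (0.70 ± 0.15, edgeR adjusted p = 0.000935) and not without replicate 6 (0.68 ± 0.15, edgeR adjusted p = 0.00236). Entpd3 was at -0.53 ± 0.27 (edgeR adjusted p = 0.114), Entpd6 at -0.06 ± 0.06 (edgeR adjusted p = 0.4) and Entpd8 at -0.63 ± 0.28 (edgeR adjusted p = 0.0731), or -0.54, -0.05 and -0.51 without replicate 6. The family therefore moved in different directions, and Entpd2 was among its smaller changes.

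Genes known from reactive glia, most of which other cells also use, were mostly higher. Of 13 listed and 12 tested, 7 were called higher and 0 lower in Winnie-Prolapse against C57BL/6 mice (7 without replicate 6), with a median of 1.68, and in Winnie mice 5 were higher at the 0.05 limit. Of all genes tested, 9.84% were called higher in Winnie-Prolapse mice (8.78% without replicate 6) and 7.42% in Winnie mice at the 0.05 limit. Nos2, the inducible nitric oxide synthase gene, had a log2 fold change of 6.99 ± 0.61 (edgeR adjusted p = 5.26e-07) and Cd44, an adhesion receptor gene, of 1.94 ± 0.34 (edgeR adjusted p = 0.000249) in Winnie-Prolapse mice, or 6.86 and 2.02 without replicate 6. Vim, the gene of the intermediate filament vimentin, was at 0.35 ± 0.21 (edgeR adjusted p = 0.183), against -1.43 for Gfap (0.42 and -1.37 without replicate 6). C3, the complement gene, was at 1.12 ± 0.44 (edgeR adjusted p = 0.0435), and at 1.05 ± 0.46 (edgeR adjusted p = 0.0719) without replicate 6. Of 5 leukocyte markers, 3 were called higher in the same comparison (3 without replicate 6), and the summed leukocyte level ranged from 17.7 to 129 CPM in C57BL/6 and 67.9 to 233 CPM in Winnie-Prolapse mice; its part in the rise of the reactive genes was not tested.

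**Figure D5:**
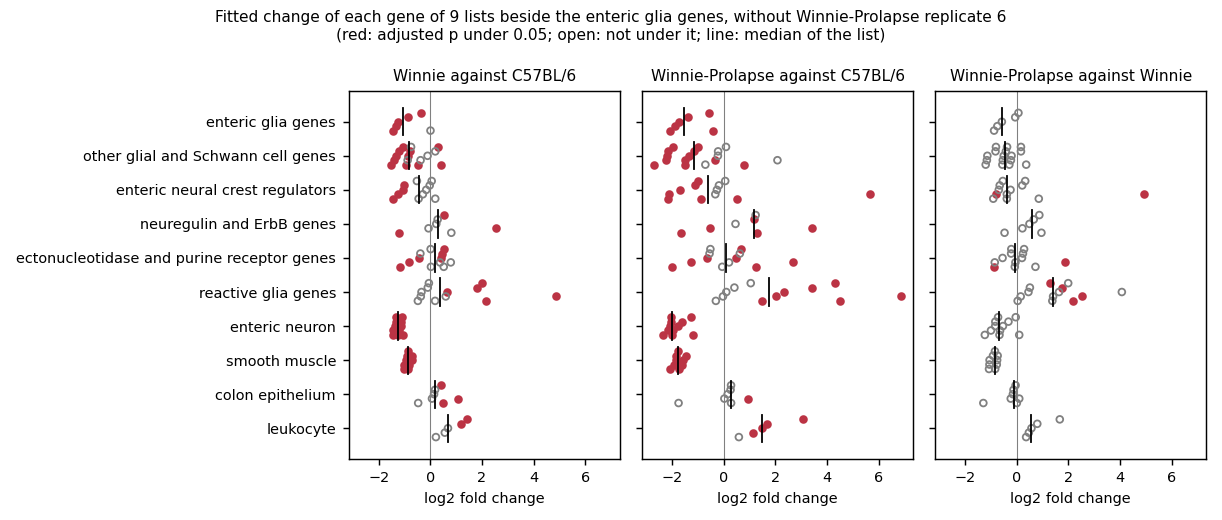
Log2 fold change of every tested gene of 10 lists in the 3 comparisons, where both panels of Winnie-Prolapse mice leave out Winnie-Prolapse replicate 6; red points have an adjusted p under 0.05 whatever their fold, open points do not, and the line is the list's median. In Winnie-Prolapse against C57BL/6 mice the medians of enteric neuron and smooth muscle genes lie at -1.99 and -1.76 beside -1.55 for the enteric glia genes, and that of colon epithelium at 0.27.

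Markers of the layers in which glia lie were lower together with the glial genes. All 11 enteric neuron markers and all 9 smooth muscle markers passed the 0.05 limit as lower in Winnie mice, as did 8.53% of all genes. In Winnie-Prolapse mice, 10 of 11 neuron markers (all but Vip; median -2.12) and 9 of 9 smooth muscle markers (median -1.78) were called lower at the 0.001 limit, against 8.47% of all genes, and 9 of each were without replicate 6, against 6.57%. The summed smooth muscle level ranged from 7120 to 13022 CPM in C57BL/6, 2123 to 7915 in Winnie and 1429 to 3415 CPM in Winnie-Prolapse mice, and the summed neuron level from 140 to 311, 43.4 to 156 and 26.5 to 93.2 CPM (from 43.5 CPM without replicate 6). Of 7 colon epithelium markers, 0 were called in either comparison at the 0.001 limit. Of all genes, 0.0925% were called at that limit in Winnie and 18.3% in Winnie-Prolapse mice (either direction). At the 0.05 limit 1 of them, the keratin gene Krt20, was called higher in Winnie mice (1.07 ± 0.34, edgeR adjusted p = 0.0322; 7.42% of all genes) and in Winnie-Prolapse mice (0.87 ± 0.34, edgeR adjusted p = 0.0397; 16.7% of all genes), also without replicate 6 (0.96 ± 0.35, edgeR adjusted p = 0.0337; 16.2%); it is named after its values were seen. The summed epithelium level ranged from 6888 to 9860, 7247 to 10968 and 6218 to 10774 CPM (from 7605 CPM without replicate 6). The highest muscle marker gene, Myh11, had a log2 fold change of -1.98 ± 0.25 (edgeR adjusted p = 1.25e-05) in Winnie-Prolapse mice, or -1.90 ± 0.26 without replicate 6. No neuron, muscle or epithelium marker was at 0 in any library, and the part of the muscle and neuron content in the glial values was not tested.

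Squamous epithelium markers, of the lining at the anal margin, were summed at 1.88 to 2.90 CPM in C57BL/6, 1.54 to 47.8 in Winnie and 1.51 to 2635 CPM in Winnie-Prolapse mice, whose lowest library was below the lowest C57BL/6 library. Of 6 such markers 3 were tested in Winnie-Prolapse against C57BL/6 mice, and 3 were called higher with all libraries and without replicate 6 (9.84% and 8.78% of all genes). The summed markers of melanocytes, another cell type of neural crest origin, were at 4.97 to 6.89, 3.41 to 4.94 and 4.30 to 7.53 CPM, with 5.12 CPM in Winnie-Prolapse replicate 6, the library with 837 Sox10 counts. The parts of these tissues in the glial values were not tested.

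Males and females did not differ in any member at an adjusted p under 0.05 when all groups were fitted together, where 0.0788% of 17769 genes differed. The largest difference, males minus females, was -1.23 ± 0.65 for Sox10 (edgeR adjusted p = 0.966), and it was -0.06 ± 0.25 (edgeR adjusted p = 0.979) without replicate 6, a female. For the other 5 members the difference lay between -0.42 and -0.05 (edgeR adjusted p of 0.966 to 0.983), and between -0.49 and -0.08 (edgeR adjusted p of 0.906 to 0.922) without replicate 6. No interaction of sex and group passed for a member, where 0% to 0.0113% of genes did; the lowest adjusted p was that of Sox10 between Winnie-Prolapse and Winnie mice, at -3.85 ± 1.24 on the log2 scale (edgeR adjusted p = 0.201), and without replicate 6 this interaction was 0.12 ± 0.68 (edgeR adjusted p = 0.961).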

How the data were processed

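Poly(A) RNA of distal colon was sequenced from stranded libraries (MGIEasy), and the authors counted reads per gene on GRCm38 with featureCounts in the RNAsik pipeline. The deposited table holds their raw, whole-number counts of 46078 genes over 22 libraries. The submitters' processing notes also name STAR and limma; the annotation release and the strand setting are not given in the sources used here, so that overlapping genes are uncertain. Locations and exon lengths came from GENCODE M21 (GRCm38), matched by identifier for 124 of 124 genes of the lists.

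Groups and sex were read from the labels, which name no batch, and p-values measure the spread between mice as deposited. Some Winnie-Prolapse labels hold date-like text, the meaning of which is not given in the sources used here, and it was not used. No 2 libraries of a group agreed within sampling noise (lowest chi-square per degree of freedom 28.8). Group differences were fitted on the counts in edgeR 4.0.16 (R 4.3.3; quasi-likelihood F test, TMM, filterByExpr), each comparison on its own 2 groups, with Benjamini-Hochberg adjustment over all genes tested. A gene was called at an adjusted p under 0.001 and at least 1.5-fold, as in the study, and a lenient limit of 0.05 was read beside it. The SE was derived from the F statistic. CPM used library totals, and ratios and correlations used log2 CPM with a prior count of 2, with exact permutations for ratios and 100000 permutations within groups for correlations. Floors of 3 counts reflect counting error alone, as the reads carry no molecular identifiers.

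The alternatives were limma-voom (limma 3.58.1), DESeq2 1.42.0, other edgeR fits, other filters and scalings, sex as a covariate, 1 sex alone, all groups in one fit, and leaving out each library. Leaving out Winnie-Prolapse replicate 6 for lists, correlations and sex was added after seeing the data. The edgeR quasi-likelihood fit was tested on simulated counts for both comparisons with C57BL/6 mice. The methods of the ranking of most alike genes and of the exact permutation test were tested on planted values. The DESeq2, limma-voom and sex fits, and Winnie-Prolapse against Winnie mice, were not tested in this way. The members and lists were chosen with earlier results of these data known. Of each list, values were given for at most the 4 genes with the highest mean CPM, plus Erbb2 and Entpd, Sox and Erbb family genes, and for each member the 3 most correlated genes were named. Values of Cdh19 were given outside this rule, after they were seen. Most other genes of the lists enter the counts and sums and are not reported here by name.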

Additional observations from a re-analysis of the deposited data

Results flagged for a closer look

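In 33 sets of values (members and ratios to Sox10, by group), 7 held 1 library far from the others of its group, where chance gives about 1 in 20. Sox10 stood at 33.7 CPM in Winnie-Prolapse replicate 6, with the other 6 libraries of the group at 0.621 to 1.27 CPM. The log2 ratios to Sox10 in the same library were low for Foxd3 (-7.59), Erbb3 (2.18), Gfap (-5.29) and Entpd2 (-1.64), and these share the 1 Sox10 value. This library held 18.0% milk protein counts, and its part in the Sox10 value was not tested. In C57BL/6 replicate 7, S100b stood at 4.85 CPM and Gfap at 7.14 CPM, with the next highest libraries at 2.84 and 3.47 CPM. Without that library the log2 fold changes in Winnie mice were -1.14 for S100b and -1.19 for Gfap (edgeR adjusted p under 0.05 for both).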

How the results depend on the processing

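No paired analysis was possible because the replicate numbers follow the sample order and the labels tie no animals across groups. Between Winnie and C57BL/6 mice, the count of members called at the 0.001 limit, 0, became 4 at an adjusted p under 0.05 and 2 with DESeq2, and was 0 to 0 on leaving out 1 library. Between Winnie-Prolapse and C57BL/6 mice, the count of 2 became 4 at 0.05, 5 with DESeq2, 0 in males alone and 0 in females alone (fits with fewer samples, in which Foxd3 and S100b were lower at an adjusted p under 0.05), and 0 with at least 10 counts required in every library, a filter that removes Foxd3 and S100b; it was 2 to 4 on leaving out 1 library. Between Winnie-Prolapse and Winnie mice, the count of 0 became 1 at 0.05 and stayed at 0 in all other settings run. DESeq2 replaced the Sox10 count of Winnie-Prolapse replicate 6 as an outlier.

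The sign of Sox10 in Winnie-Prolapse against C57BL/6 mice turned to -1.50 with DESeq2, -1.079 with limma-voom and -1.578 in males, with a range of -1.73 to 1.24 on leaving out 1 library. Against Winnie mice it turned to -0.79, -0.047 and -0.84, with a range of -0.88 to 2.12. Other turns were in values near 0. For Erbb3 in Winnie mice these were -0.0790 with library sizes, -0.00821 with limma-voom, -0.0373 with the 10-count filter, -0.029 with sex as a covariate and -0.21 in males, with a range of -0.098 to 0.11 on leaving out 1 library. For Gfap between Winnie-Prolapse and Winnie mice they were -0.00511 with library sizes and -0.0622 in males, with a range of -0.12 to 0.22, and for Entpd2 0.032 in males. The cause of these turns was not tested.

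Ratios to Sox10 in Winnie-Prolapse mice turned on leaving out 1 library: against C57BL/6 mice, Foxd3 ranged from -0.91 to 0.097 and Gfap from -0.71 to 0.35; against Winnie mice, Foxd3 ranged from -0.56 to 0.46, Erbb3 from -0.94 to 0.15, Gfap from -0.32 to 0.75 and Entpd2 from -0.45 to 0.60. Each of these high ends was without replicate 6. Without it, the correlation of Sox10 with Erbb3 turned to 0.093 and with Entpd2 to 0.27, and the sex interactions of Sox10 turned to 0.39 and 0.12 and that of Erbb3 to -0.059, none past its threshold. Of the planned settings, 696 were counted as unchanged, 41 as reversed, 15 as moved, 10 as stronger and 4 as weaker. Unchanged meant the same direction and side of the limit for fold changes (the 0.001 limit) and ratios. For counts of members and correlations it meant a similar value. Fits that ended the 0.05 calls of Sox10 and Foxd3 in Winnie mice are among the unchanged. The depth limits Foxd3 most, with 1 to 40 counts in a library.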
